A study of Homo sapiens with 9 samples.

Results

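Kinesins are motor proteins that hydrolyze ATP to walk along microtubules or to take their ends apart. One set is made mostly in dividing cells, where its members build the spindle, align the chromosomes, and cut the cell apart at cytokinesis, and the genes of that set are switched on late in the cell cycle. Another set carries vesicles, organelles, and ciliary cargo in cells that divide and in cells that do not, neurons foremost.

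The genes described here are the rows whose symbol begins with KIF followed by a digit, 36 of the 16204 genes listed in at least 1 of the deposited count tables. By their known roles, 12 were placed in a mitotic class, 15 in a transport class, and 9 in neither. RNA-Seq was done on tumors of PC3, a human prostate cancer cell line, grown under the skin of male NSG mice, which lack lymphocytes but keep other host cells. According to the series record the mice were 11 weeks old, received PC3 cells in PBS and Matrigel, and were treated from a tumor volume of 90 mm3. By that record treatment was by retro-orbital injection once a week for 5 cycles, with PBS vehicle or 5 mg/kg of P-DXd or T-DXd. The study's methods give that age, volume, and number of cycles for an experiment with T-DXd as the only conjugate, at a higher dose. For RNA-Seq they name tumors of vehicle and of both conjugates at 5 mg/kg. The mice of that experiment were younger, with a larger tumor volume at the start and fewer cycles. P-DXd (patritumab deruxtecan) and T-DXd (trastuzumab deruxtecan) are antibodies against HER3 and HER2 that carry the same topoisomerase I inhibitor. Each group held 3 tumors, each with its own animal code, collected at endpoint. For all 6 treated libraries the title names 1 conjugate and the treatment field the other, so groups carry the name in the title, as P-DXd-titled or T-DXd-titled, and which conjugate a group received cannot be known here.

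Total counts ran from 54481702 to 125538606 per library, and every PBS library was deeper than every treated one. PBS 1 stood apart from PBS 2 and PBS 3, with a chi-square per gene of 315.8 and 388.3 against them, where PBS 2 and PBS 3 gave 37.47. P-DXd-titled 2 also stood apart, at 126.1 and 105.7 against P-DXd-titled 1 and 3, where those gave 39.82. The T-DXd-titled pairs gave 17.17 to 27.8. This measure grows with depth, so its size is not compared between groups. The epithelial and mesenchymal genes of PC3 (KRT8, KRT18, EPCAM, VIM, CD44) were abundant. The tables hold human gene identifiers and do not separate reads of mouse cells. In whole tumors, fewer cells of a type and less RNA per cell cannot be told apart.

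In the PBS tumors the kinesin transcripts were divided between both classes, and in the treated tumors transport kinesins made up most of them. CPM (counts of a gene per 1000000 counts of its library, scaled by edgeR's TMM factors) was divided by the length of each gene's canonical transcript in kilobases (CPM per kb) so that genes could be compared. Mitotic kinesins then took 58.0%, 45.7%, and 42.4% of all kinesin CPM per kb in PBS 1, 2, and 3, or 48.7% ± 8.22 (SD, n = 3). Their share was 19.9%, 20.9%, and 17.4% in the P-DXd-titled tumors, or 19.4% ± 1.83 (SD, n = 3), and 17.1%, 18.4%, and 16.03% in the T-DXd-titled tumors, or 17.2% ± 1.18 (SD, n = 3). The lowest PBS share was above the highest treated share, and without PBS 1 the PBS mean was 44.04%. With CPM not divided by length the shares were 36.2% in PBS and 10.3% in the 6 treated tumors.

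The summed level of the transport class overlapped between the groups. It came to 139 ± 4.37 CPM per kb (SD, n = 3) in PBS and 140.1 ± 3.91 (SD, n = 6) in treated tumors. The mitotic sum was 156 ± 46.5 CPM per kb (SD, n = 3) in PBS and 35.7 ± 4.92 (SD, n = 6) in treated tumors, with no overlap.

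**Figure D1:**
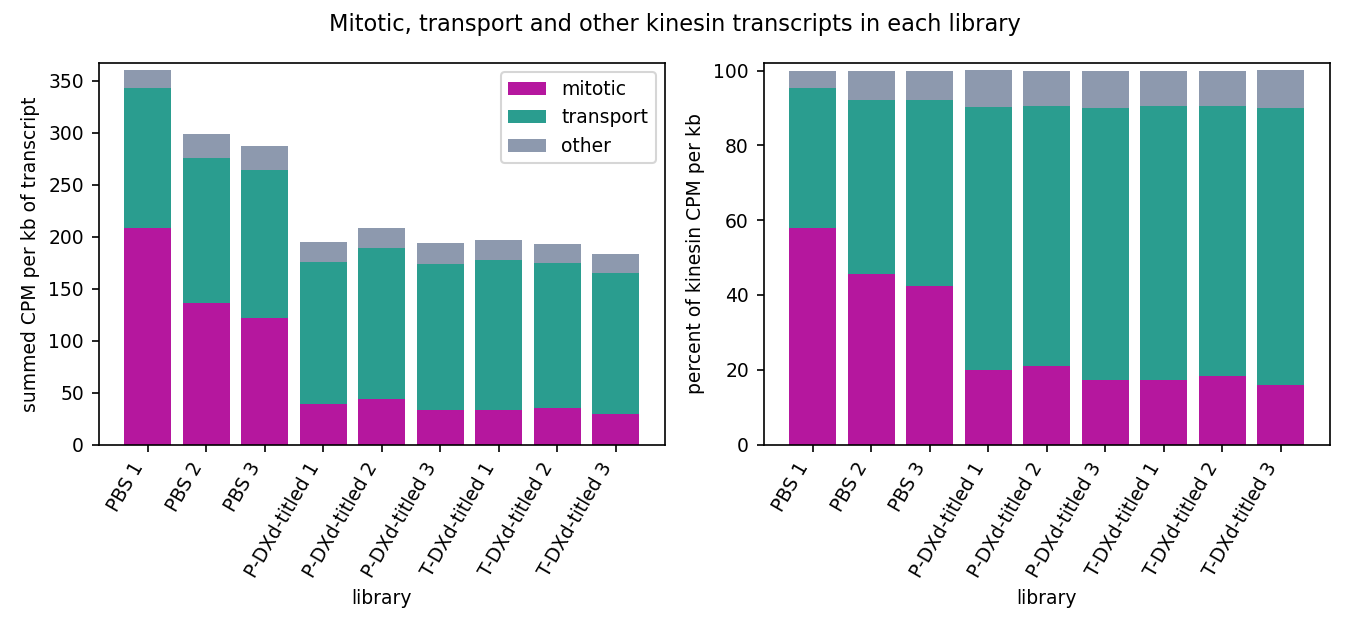
Stacked bars give the summed CPM per kb of transcript (left) and the percent of all kinesin CPM per kb (right) of mitotic, transport, and other kinesins in each of the 9 libraries. The mitotic segment spans 122 to 209 CPM per kb in PBS and 29.4 to 43.6 in treated libraries, whereas the transport segment spans 134 to 145 over all 9.

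By level per length in PBS, KIF5B, the ubiquitous heavy chain of conventional kinesin, ranked first at 33.1 ± 0.728 CPM per kb (SD, n = 3), followed by KIF22 at 29.3 ± 9.16, KIF1C at 24.2 ± 2.23, KIF3B at 21.4 ± 2.43, KIF2C at 21.0 ± 8.91, KIF23 at 19.7 ± 4.75, and KIF13A at 19.6 ± 3.51. Neighbors in this order lay within their spread. In the 6 treated tumors KIF5B still ranked first at 34.1 ± 1.64 CPM per kb (SD, n = 6), followed by KIF1C at 29.7 ± 2.32, KIF3B at 21.1 ± 0.448, KIF13A at 17.2 ± 0.488, and KIF22 at 14.0 ± 0.882. KIF2C moved from rank 5 to 14 and KIF20A from rank 11 to 24, and KIF22 was the only mitotic kinesin among the first 12 in treated tumors.

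Mitotic kinesins are known targets of cell cycle repressor and activator complexes that bind a CHR element (TTTGAA) and CCAAT boxes close to the start site, so promoter windows from RefSeq (GRCh38.p14, 250 bases before to 50 after the start) were searched on both strands for these letters and for an E2F-type site (TTTNNCGC). The 100 bases before the start are shown for 4 mitotic kinesins that hold both of the first 2 motifs there, for 2 mitotic kinesins without TTTGAA, and for 2 abundant transport kinesins, with every TTTGAA and CCAAT on either strand in capitals.
KIF4A: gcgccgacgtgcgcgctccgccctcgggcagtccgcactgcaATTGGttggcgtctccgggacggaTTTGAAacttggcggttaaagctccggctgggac
KIF11: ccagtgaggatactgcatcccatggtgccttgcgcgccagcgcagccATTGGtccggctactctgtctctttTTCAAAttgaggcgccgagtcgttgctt
KIF18A: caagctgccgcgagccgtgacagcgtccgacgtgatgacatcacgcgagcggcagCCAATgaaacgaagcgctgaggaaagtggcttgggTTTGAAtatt
KIF23: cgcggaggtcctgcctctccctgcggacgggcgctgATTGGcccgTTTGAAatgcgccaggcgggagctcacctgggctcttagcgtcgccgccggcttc
KIF22: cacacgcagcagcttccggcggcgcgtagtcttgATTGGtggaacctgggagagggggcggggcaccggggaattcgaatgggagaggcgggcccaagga
KIF20A: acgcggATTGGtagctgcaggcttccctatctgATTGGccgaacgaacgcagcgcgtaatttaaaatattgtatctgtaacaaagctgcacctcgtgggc
KIF5B: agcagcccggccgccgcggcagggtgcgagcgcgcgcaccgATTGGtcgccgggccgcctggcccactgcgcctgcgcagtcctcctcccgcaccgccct
KIF3B: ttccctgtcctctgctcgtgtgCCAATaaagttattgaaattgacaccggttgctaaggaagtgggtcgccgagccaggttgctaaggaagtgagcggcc
Of the 8 stretches, KIF4A (plus strand, chrX:70290004-70290103), KIF11 (plus, chr10:92593030-92593129), KIF18A (minus, chr11:28108157-28108256), and KIF23 (plus, chr15:69414249-69414348) hold 1 match of each motif. Only CCAAT is found in KIF22 (plus, chr16:29790651-29790750, the first of 2 windows listed for the gene), KIF20A (plus, chr5:138179012-138179111, 2 matches), KIF5B (minus, chr10:32056426-32056525), and KIF3B (plus, chr20:32277551-32277650).

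Windows were searched for 31 of the 36 kinesins, and none was found for KIF21B, KIF26B, KIF27, and KIF5A. Chromosome 8, which holds KIF13B, was left out of the search, for the counts over all genes too. TTTGAA occurred in the window of 9 of 12 mitotic kinesins (75.0%), 1 of 12 transport kinesins (8.33%, KIF5B, farther upstream than the stretch shown), and 0 of 7 others, against 18.2% of all 27305 genes with a window and 14.4% of the 11115 of them that were tested. In 5 of the 9 mitotic kinesins the match lay wholly before the start site, and in the other 4 at or after it. CCAAT occurred in 10 of 12 mitotic, 4 of 12 transport, and 3 of 7 other kinesins, against 39.7% of all genes. TTTNNCGC occurred in 2, 1, and 1 of them, against 8.23% of all genes. KIF2C held none of the 3. No matches of different motifs shared a base in a kinesin window. These are matches of exact letters in fixed windows, so other forms of a CHR element were not counted, and binding was not measured.

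**Figure D2:**
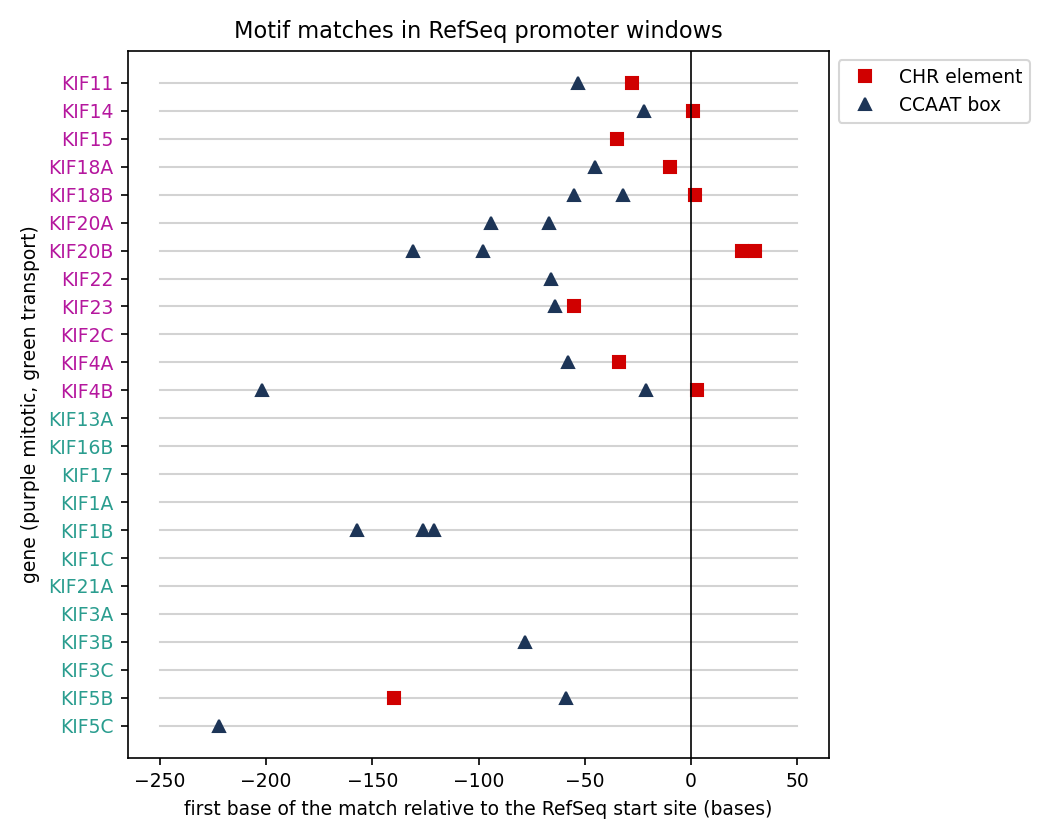
Each row is the window of a mitotic (purple) or transport (green) kinesin, drawn as distance in bases from the RefSeq start site. Squares mark TTTGAA, labeled as the CHR element, and triangles mark CCAAT. Genes with more than 1 window are drawn on 1 row. Squares fall in 9 of 12 mitotic rows and in 1 of 12 transport rows.

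The first comparison asked how the mitotic kinesins differed between treated and vehicle tumors. All 11 mitotic kinesins that could be tested were lower in the 6 treated tumors than in the 3 PBS tumors, by log2 fold changes between −1.08 and −3.57, with a median of −2.42. KIF20A, KIF14, and KIF18B changed most and KIF22 least. A gene was called where the edgeR quasi-likelihood test gave a Benjamini-Hochberg adjusted p of at most 0.05 and the change was at least 1.5-fold, which called 17.1% of the 15070 genes tested lower and 15.2% higher. In all 11 every treated library was below every PBS library, which held for 24.4% of all genes tested. All 11 were also called lower in each group alone, with a median of −2.23 in the P-DXd-titled tumors (adjusted p from 0.00151 to 0.00966), where 13.8% of 14945 genes were called lower, and of −2.68 in the T-DXd-titled tumors (adjusted p from 0.000393 to 0.00924), where 15.5% of 14915 genes were. Both groups were compared with the same 3 PBS libraries. The median over all genes tested was −0.01 for both conjugates together. Values by library follow in CPM with TMM scaling, in the order of replicates 1, 2, and 3, and fold changes are for both conjugates against PBS.

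Among the motors that push the spindle poles apart, KIF11, which slides antiparallel microtubules and is the target of several antimitotic drugs, read 95.8, 64.9, and 59.6 CPM in PBS, 17.8, 19.4, and 12.8 CPM in P-DXd-titled tumors, and 14.8, 12.8, and 10.5 CPM in T-DXd-titled tumors, a log2 fold change of −2.35 (SE 0.20, adjusted p = 9.04e-06). KIF15, which can take over part of that work, read 36.8, 24.4, and 21.1 CPM in PBS, 4.65, 6.57, and 4.65 CPM in P-DXd-titled tumors, and 6.25, 5.55, and 3.55 CPM in T-DXd-titled tumors, a log2 fold change of −2.42 (SE 0.21, adjusted p = 1.03e-05). Both were lowest in T-DXd-titled 3 and highest in PBS 1, and no treated tumor reached PBS levels.

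The chromosome-bound motors differed in size of change. KIF4A, which acts on chromosome arms and with PRC1 on the central spindle, read 75.0, 56.0, and 51.5 CPM in PBS, 13.7, 15.3, and 10.3 CPM in P-DXd-titled tumors, and 10.1, 9.90, and 6.89 CPM in T-DXd-titled tumors, a log2 fold change of −2.49 (SE 0.21, adjusted p = 9.48e-06). KIF22, which pushes chromosome arms from the poles, read 82.9, 51.9, and 48.1 CPM in PBS, 26.3, 29.6, and 29.3 CPM in P-DXd-titled tumors, and 28.6, 32.0, and 29.4 CPM in T-DXd-titled tumors, a log2 fold change of −1.08 (SE 0.15, adjusted p = 0.000173). For KIF22 the treated libraries lay close together and the change was the smallest of the class, while its level per length was the highest of the class in both PBS and treated tumors. Relative to KIF11 within the same library, a pair chosen after the values were seen, the log2 ratio of KIF22 counts was −0.32 to −0.21 in PBS and 0.56 to 1.49 in treated tumors.

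KIF4B, an intronless copy nearly identical to KIF4A, had at most 10 counts in any library and was not tested, and reads shared with KIF4A could be split between them.

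The motors that act on microtubule ends during chromosome alignment fell together. KIF18A, which dampens chromosome oscillation at the metaphase plate, read 31.7, 25.6, and 23.8 CPM in PBS, 8.12, 8.58, and 5.31 CPM in P-DXd-titled tumors, and 5.25, 6.59, and 4.71 CPM in T-DXd-titled tumors, a log2 fold change of −2.09 (SE 0.19, adjusted p = 1.43e-05). KIF18B, which limits astral microtubules, read 72.8, 48.6, and 38.8 CPM in PBS, 7.56, 10.4, and 5.62 CPM in P-DXd-titled tumors, and 5.24, 6.76, and 5.19 CPM in T-DXd-titled tumors, a log2 fold change of −2.998 (SE 0.24, adjusted p = 6.81e-06). KIF2C (MCAK), which takes microtubule ends apart at kinetochores, read 89.0, 49.8, and 41.2 CPM in PBS, 11.9, 13.5, and 9.63 CPM in P-DXd-titled tumors, and 11.6, 8.95, and 7.68 CPM in T-DXd-titled tumors, a log2 fold change of −2.53 (SE 0.23, adjusted p = 1.46e-05). KIF18B was the third most reduced of the class, and KIF2C had the highest level of PBS 1 relative to the others, at 1.96 times the mean of PBS 2 and PBS 3.

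Motors of the central spindle and cytokinesis included the 2 largest changes. KIF23, the motor subunit of centralspindlin, read 92.0, 65.0, and 59.5 CPM in PBS, 18.6, 21.0, and 13.9 CPM in P-DXd-titled tumors, and 13.3, 15.4, and 10.8 CPM in T-DXd-titled tumors, a log2 fold change of −2.24 (SE 0.20, adjusted p = 1.12e-05). KIF20A, which brings the Aurora B complex to the central spindle, read 53.5, 31.7, and 27.3 CPM in PBS, 4.27, 5.48, and 3.22 CPM in P-DXd-titled tumors, and 1.69, 2.46, and 2.203 CPM in T-DXd-titled tumors, a log2 fold change of −3.57 (SE 0.34, adjusted p = 1.71e-05). Of the 11 mitotic kinesins tested, KIF20A was the only one under 2.5 CPM in all 3 T-DXd-titled tumors. KIF14, which recruits citron kinase to the midbody, read 105, 72.2, and 62.7 CPM in PBS, 12.6, 11.5, and 9.16 CPM in P-DXd-titled tumors, and 7.43, 8.03, and 6.12 CPM in T-DXd-titled tumors, a log2 fold change of −3.15 (SE 0.22, adjusted p = 4.26e-06). KIF20B, which acts late in abscission, read 62.9, 39.4, and 37.3 CPM in PBS, 11.7, 11.4, and 7.98 CPM in P-DXd-titled tumors, and 8.27, 7.55, and 6.35 CPM in T-DXd-titled tumors, a log2 fold change of −2.41 (SE 0.22, adjusted p = 1.27e-05). For these 4, too, treated and PBS libraries did not overlap.

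**Figure D3:**
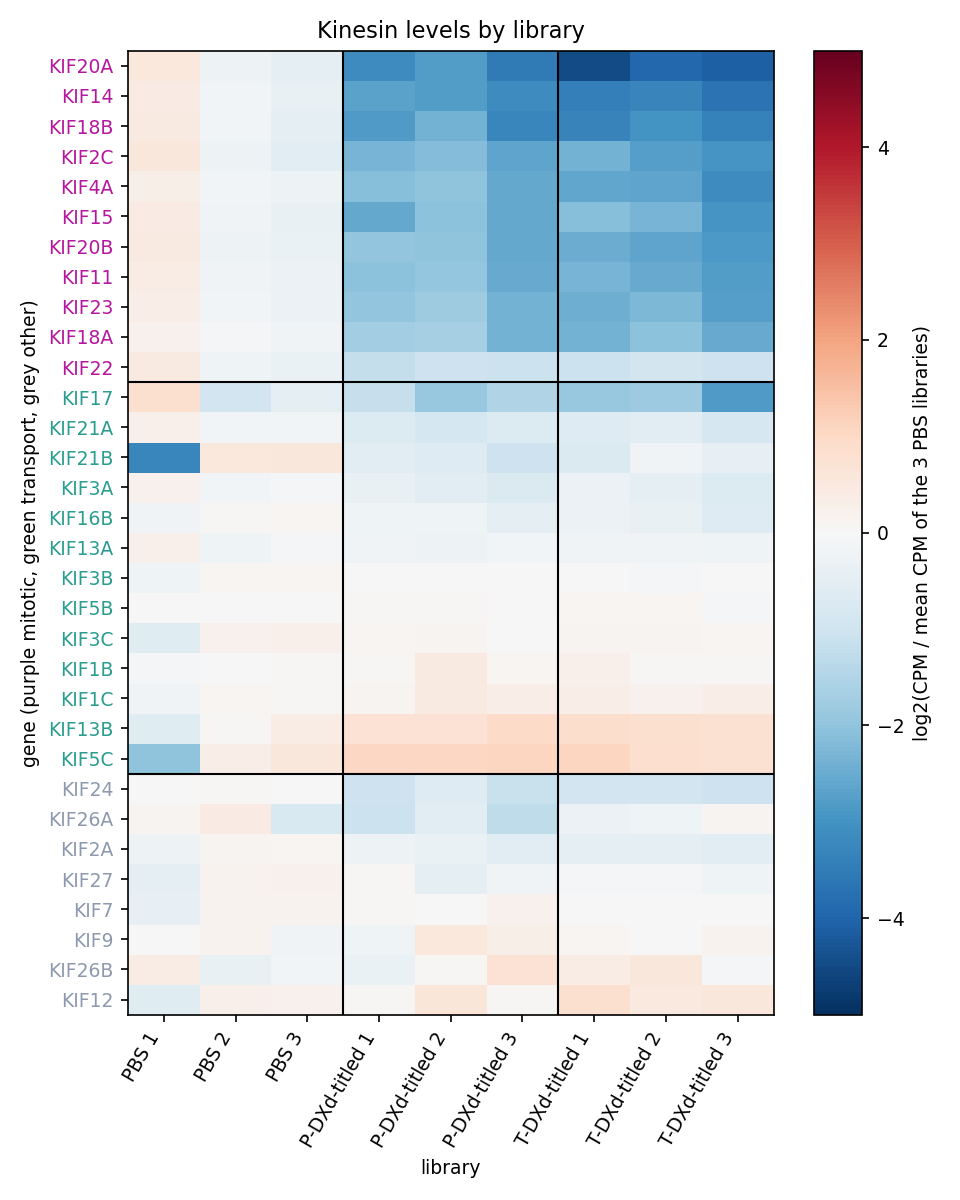
Each cell gives log2 of a library's CPM over the mean CPM of the 3 PBS libraries, for the 32 kinesins with at least 10 counts in every library, grouped as mitotic (purple), transport (green), and other (grey) and ordered within a class by their change. The 6 treated columns are blue throughout the mitotic block, down to KIF20A at the top, while most transport rows stay near white and PBS 1 departs from PBS 2 and 3 in several rows.

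PBS 1 was the highest PBS library for 11 of 11 mitotic kinesins, at 1.28 to 1.96 times the mean of PBS 2 and PBS 3 (median 1.62), and PBS 3 was the lowest for 11 of 11. The transport class had a median ratio of 0.851. Without PBS 1 all 11 mitotic kinesins were still called lower, with a median of −2.12 and a range from −3.21 to −0.78. Among treated libraries, P-DXd-titled 2 was the highest for 8 of 11 and T-DXd-titled 3 the lowest for 9 of 11. Some markers of other cell types differed between treated and PBS tumors. The 7 skeletal muscle markers, all listed, summed to 0.736 to 43.3 CPM in PBS, 67.5 to 3880 in P-DXd-titled, and 184 to 235 in T-DXd-titled tumors. All 7 were called higher with both conjugates against PBS. P-DXd-titled 2 held the 3880 CPM, and without it the mitotic median was −2.50 and all 11 were called. The 8 fibroblast markers, all listed, summed to 1050 to 2010 CPM in PBS, 1230 to 2130 in P-DXd-titled, and 2060 to 2230 in T-DXd-titled tumors, and the 3 of 6 macrophage markers that were listed to 2.99 to 3.38, 6.87 to 10.5, and 11.1 to 15.3 CPM, with CD68 at or near 0. By edgeR with both conjugates against PBS, 4 of the 8 fibroblast markers were called higher, beside 15.2% of all genes. COL1A1 was not called (log2 fold change 0.15, adjusted p = 0.595). Of the macrophage markers CSF1R was called higher (1.87, adjusted p = 0.000103) and CD14 was not (0.67, adjusted p = 0.187). The part of these cell types in the kinesin levels was not tested.

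Some of these genes overlap a neighbor in the tables, KIF20A with BRD8 and CDC23, KIF4A with PDZD11, KIF18A with METTL15, and KIF15 with TMEM42, and whether counting used strand is not given in the sources used here.

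The same comparison was made for the transport kinesins. Both conjugates together were compared with PBS, where 17.1% of all genes were called lower and 15.2% higher. Of 15 transport kinesins tested, 2 were called lower (KIF17 and KIF21A), 1 higher (KIF13B), and 12 were not called. Their median log2 fold change was −0.04, with a range from −1.78 to 0.95. Treated libraries lay below all PBS libraries for 4 of the 15 and above them for 4, where 26.2% of all genes tested lay above. In the P-DXd-titled tumors 1 was lower (KIF21A) and 1 higher (KIF13B), beside 11.2% of all genes called higher, and in the T-DXd-titled tumors 2 were lower (KIF17 and KIF21A) and 1 higher (KIF13B), beside 13.1%. With a block on the digit before the point in the animal code, KIF21A alone was called in the T-DXd-titled tumors, with KIF13B at adjusted p = 0.0506 and KIF17 at 0.0577 by edgeR.

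The most abundant transport kinesins held close to PBS levels. KIF5B read 193, 191, and 199 CPM in PBS, 201, 205, and 198 CPM in P-DXd-titled tumors, and 208, 206, and 182 CPM in T-DXd-titled tumors, a log2 fold change of 0.02 (SE 0.06, adjusted p = 0.798). KIF3B, which pairs with KIF3A in the ciliary motor kinesin-2, read 114, 139, and 139.6 CPM in PBS, 127, 129, and 131 CPM in P-DXd-titled tumors, and 130.1, 124, and 132 CPM in T-DXd-titled tumors, a log2 fold change of −0.04 (SE 0.07, adjusted p = 0.634). KIF13A, which moves recycling endosomes, read 142, 102, and 109.6 CPM in PBS, 105, 98.6, and 107 CPM in P-DXd-titled tumors, and 104, 103, and 101 CPM in T-DXd-titled tumors, a log2 fold change of −0.21 (SE 0.10, adjusted p = 0.0859). For these 3 genes the change was within 0.22 on the log2 scale, against −1.08 for the least reduced mitotic kinesin. KIF1C, a kinesin-3 motor of vesicles and integrin traffic, read 171, 205, and 198 CPM in PBS, 207, 261, and 239.9 CPM in P-DXd-titled tumors, and 237, 222, and 241 CPM in T-DXd-titled tumors, a log2 fold change of 0.28 (SE 0.08, adjusted p = 0.0171). Its treated libraries all lay above PBS, and the change passed the adjusted p but was under the 1.5-fold minimum. P-DXd-titled 2, the library with the most muscle transcript, was the highest of all 9 for KIF1C and, at 114 CPM, for KIF1B (80.1 to 97.2 CPM elsewhere), and the part of muscle in this was not tested.

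The called transport kinesins changed less than the mitotic ones or were scarce. KIF21A, a kinesin-4 motor that restrains microtubule growth, read 64.7, 49.4, and 50.1 CPM in PBS, 34.3, 29.6, and 34.4 CPM in P-DXd-titled tumors, and 35.0, 37.1, and 30.5 CPM in T-DXd-titled tumors, a log2 fold change of −0.73 (SE 0.11, adjusted p = 0.000235). KIF13B, which transports membrane cargo in epithelial cells and neurons, read 17.5, 27.5, and 34.4 CPM in PBS, 43.4, 43.98, and 51.7 CPM in P-DXd-titled tumors, and 48.6, 46.0, and 45.3 CPM in T-DXd-titled tumors, a log2 fold change of 0.79 (SE 0.17, adjusted p = 0.00226). Neither gene had a treated library within the PBS range, and both lost their call without PBS 1, with log2 fold changes of −0.58 and 0.58, just under the minimum. KIF13B was called in 1 of 6 fits that each left out 1 library in the P-DXd-titled comparison and likewise in 1 of 6 in the T-DXd-titled comparison. KIF17, a homodimeric kinesin-2 known from cilia and dendrites, read 1.90, 0.567, and 0.807 CPM in PBS, 0.491, 0.295, and 0.381 CPM in P-DXd-titled tumors, and 0.290, 0.311, and 0.153 CPM in T-DXd-titled tumors, a log2 fold change of −1.78 (SE 0.42, adjusted p = 0.0046). PBS 1 held more KIF17 than any other library, and without it the change was −1.09. In the T-DXd-titled comparison KIF17 was called in 3 of 6 fits that each left out 1 library, and lost without each T-DXd-titled library in turn.

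Of the others, KIF3A, the partner of KIF3B, had a log2 fold change of −0.54 (SE 0.12, adjusted p = 0.00282) and KIF16B, a motor of early endosomes, −0.37 (SE 0.11, adjusted p = 0.0144), both past the adjusted p and under the fold minimum. KIF1B, which carries mitochondria and vesicles, and KIF3C, a second partner of KIF3A, had changes of 0.15 and 0.09 (SE 0.10 and 0.15). The motors best known from neurons were near the floor. KIF1A, KIF5A, KIF5C, and KIF21B ranged from 0.0612 to 2.35 CPM over all libraries, and none was called by edgeR. With both conjugates against PBS, DESeq2 called 32.6% of all genes in either direction. It called KIF5C higher (log2 fold change 0.96, adjusted p = 0.0395), where edgeR gave an adjusted p of 0.0792. Without PBS 3 edgeR called KIF5C too. PBS 1 held 0.167 CPM of KIF21B where PBS 2 and PBS 3 held 2.28 and 2.35, and without PBS 1 KIF21B was called lower, with a change of −1.10. Of the 9 neuron and nerve markers 3 (SNAP25, NEFL, and S100B) were not listed and the 6 others summed to 4.28 to 13.6 CPM.

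**Figure D4:**
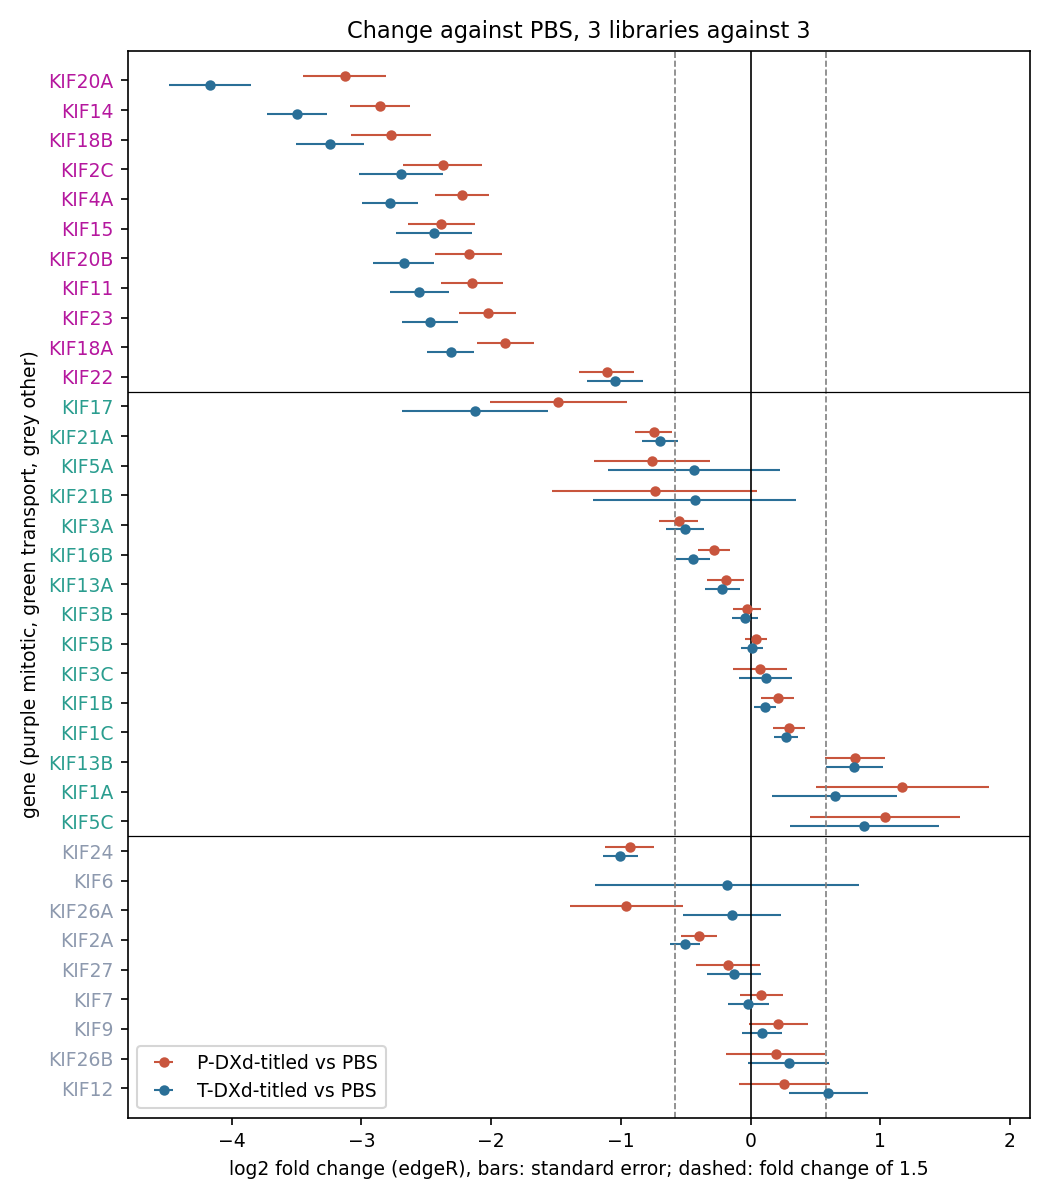
Points give the edgeR log2 fold change against PBS of each tested kinesin in P-DXd-titled (red) and T-DXd-titled (blue) tumors, 3 libraries against 3, with bars of 1 standard error and dashed lines at the 1.5-fold minimum. All 11 mitotic kinesins lie left of the lower dashed line in both groups, and most transport kinesins lie between the lines.

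Of the 9 kinesins in neither class, 1 was called with both conjugates against PBS, beside 17.1% of all genes called lower and 15.2% higher. KIF24, which takes centriolar microtubules apart and restrains cilia, read 9.19, 9.88, and 9.23 CPM in PBS, 4.58, 6.02, and 4.32 CPM in P-DXd-titled tumors, and 4.84, 4.90, and 4.56 CPM in T-DXd-titled tumors, a log2 fold change of −0.98 (SE 0.12, adjusted p = 0.000106). Treated and PBS libraries did not overlap, and the level did not stand out in PBS 1. KIF2A, a depolymerase related to KIF2C that works at spindle poles and in neurons, read 48.4 to 64.0 CPM in PBS and 39.2 to 48.2 CPM in treated tumors, with a log2 fold change of −0.46 (SE 0.10, adjusted p = 0.00226), under the fold minimum. KIF7, which acts in Hedgehog signaling in the primary cilium, had a change of 0.03 (SE 0.12). KIF27, a relative of KIF7, and KIF9, a motor of motile cilia, had changes of −0.16 and 0.14. KIF6, KIF12, KIF26A, and KIF26B stayed at or below 1.69 CPM in every library and none was called. The 5 ciliated cell markers, all listed, summed to 15.1 to 17.9 CPM in PBS, 21.9 to 28.1 in P-DXd-titled, and 19.2 to 24.8 in T-DXd-titled tumors. The markers moved in opposite directions, FOXJ1 from 0.312 to 2.76 CPM in PBS to 6.79 to 14.4 CPM in treated tumors (called higher, as was RSPH1) and CCDC39 from 6.31 to 8.65 CPM to 0.916 to 2.54 CPM (called lower), and their part in the levels of the ciliary kinesins was not tested.

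Ratios of counts within a library need no scaling between libraries. They were taken for 5 pairs, each of a mitotic kinesin and either a transport kinesin or KIF2A, which also works at spindle poles. The log2 ratio of KIF14 to KIF13A was −0.43, −0.50, and −0.81 in PBS 1, 2, and 3 and between −4.05 and −3.06 in treated tumors, a difference of −2.96. For KIF11 to KIF5B it was −1.01, −1.56, and −1.74 in PBS and between −4.12 and −3.40 in treated tumors, a difference of −2.36. Both pairs were separated fully.

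KIF23 to KIF3B gave −0.30, −1.10, and −1.23 in PBS and −3.60 to −2.62 in treated tumors, a difference of −2.21. KIF2C to KIF2A, both depolymerases, gave 0.88, −0.36, and −0.59 in PBS and −2.39 to −1.76 in treated tumors, a difference of −2.02. KIF4A to KIF21A, both of the kinesin-4 family, gave 0.21, 0.18, and 0.04 in PBS and −2.15 to −0.95 in treated tumors, a difference of −1.79. Every treated ratio was below every PBS ratio in all 5 pairs. Each reached p = 0.0119 in the two-sided exact permutation test, the smallest that 84 divisions of 9 libraries into 6 and 3 allow. Benjamini-Hochberg adjustment over the 5 leaves this as it is. The pairs were chosen with earlier results of these data known. They reuse mitotic kinesins whose separation is given above, so these p-values are not separate support.

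**Figure D5:**
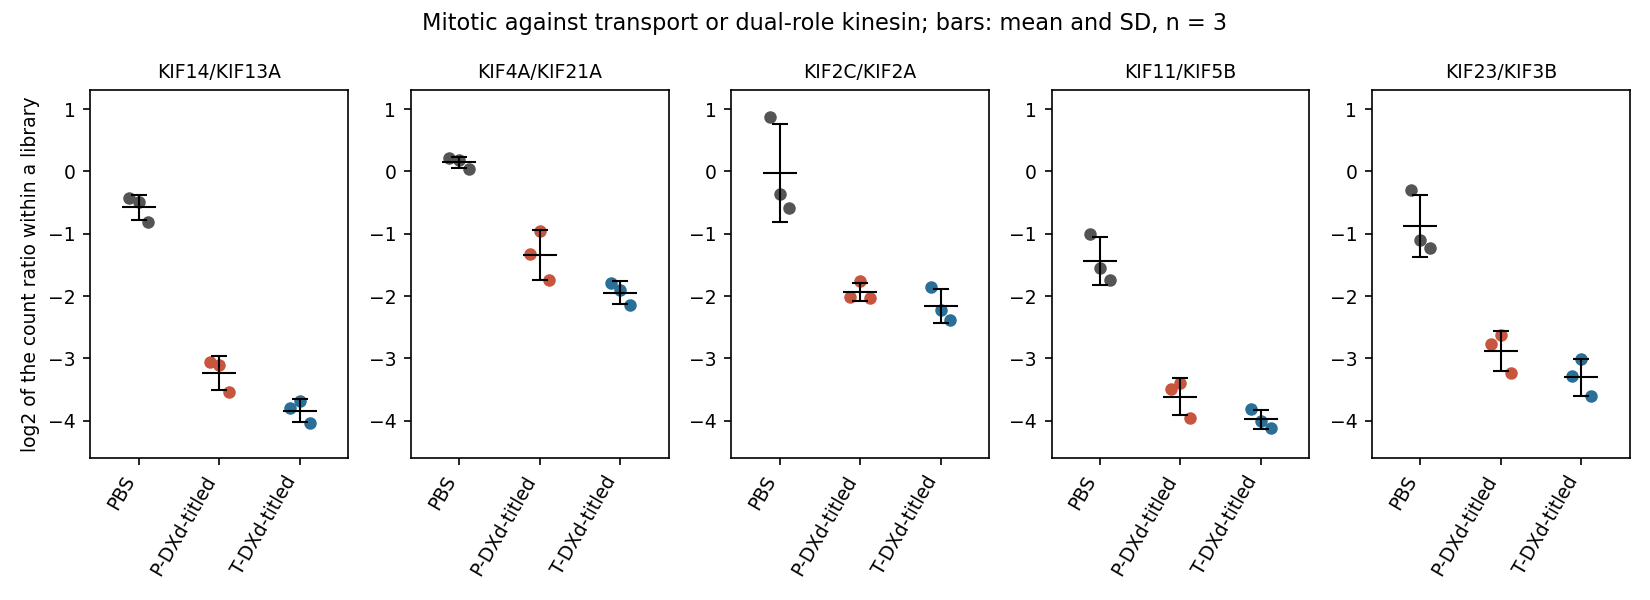
Points give the log2 ratio of the counts of a mitotic kinesin to those of a transport kinesin or of KIF2A within each library, with mean and SD of 3 libraries per group. Each panel shows the 3 PBS points above all 6 treated points, with the widest PBS spread for KIF2C/KIF2A, where PBS 1 lies at 0.88.

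The direct comparison of the conjugate groups asked whether the kinesins differed between them. The edgeR test called 0.0273% of 14653 genes in either direction and 0 of the 34 kinesins tested. An unadjusted p under 0.05 was found for 540 of the 14653 genes and for 6 of these kinesins, all mitotic. DESeq2 called 2 of them, KIF14 and KIF20A, beside 0.164% of all genes. The log2 difference of P-DXd-titled from T-DXd-titled tumors was above 0 for 10 of 11 mitotic kinesins, with a median of 0.43 and a range from −0.08 (KIF22) to 1.03 (KIF20A). The median was 0.01 for transport kinesins and 0.00 for the others.

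KIF20A had a log2 difference of 1.03 (SE 0.24, adjusted p = 0.809 by edgeR and 0.0102 by DESeq2) and KIF14 of 0.63 (SE 0.15, adjusted p = 0.923 by edgeR and 0.0293 by DESeq2). With KIF4A, at 0.54 (SE 0.18), they were the 3 of 11 mitotic kinesins whose P-DXd-titled libraries all lay above the T-DXd-titled ones, which held for 4.04% of all genes tested. Of the transport kinesins 0 of 15 did so. T-DXd-titled 3 was the lowest treated library for most mitotic kinesins, as given above.

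Known partners of the mitotic motors moved with them. All 13 were called lower with both conjugates against PBS, beside 17.1% of all genes, with a median of −2.26. PLK1, the kinase that docks on several of these motors, had a log2 fold change of −3.22 (SE 0.42), HMMR, a spindle protein, of −2.99 (SE 0.28), CIT, the citron kinase bound by KIF14, of −2.69 (SE 0.19), and BIRC5 of the Aurora B complex of −2.42 (SE 0.23). TTTGAA was found in 8 of the 9 partners with a promoter window, against 18.2% of all genes with a window and 14.4% of those tested. The remaining partners had no window in the search. The 7 proliferation markers were all lower, with a median of −2.61, and MKI67, a marker of cycling cells, read 299, 221, and 188 CPM in PBS and 20.6 to 37.3 CPM in treated tumors. PBS 1 was thus the highest for MKI67 as it was for the mitotic kinesins.

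Of the 5 kinesins whose names fall outside the KIF and digit pattern, 3 were called lower, beside 17.1% of all genes. CENPE, which carries chromosomes to the plate, had a log2 fold change of −3.05 (SE 0.21), KIFC1, a minus-end motor that focuses spindle poles, of −2.27 (SE 0.18), and STARD9, a kinesin of the centrosome, of −1.78 (SE 0.17). KIFC3 had a change of −0.51 (SE 0.08), under the fold minimum, and KIFC2 of 0.20 (SE 0.18).

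Genes that work with transport motors were counted in the same way. Of 16 light chains and cargo adaptors, 3 were called lower and 2 higher, with a median of 0.06, beside 17.1% and 15.2% of all genes. HAP1 and FEZ1, adaptors known from neurons, had log2 fold changes of −1.85 (SE 0.29) and −1.07 (SE 0.20), and RHOT2, a mitochondrial anchor, of −1.03 (SE 0.15). MAPK8IP2, a scaffold on kinesin light chains, had a change of 0.81 (SE 0.17) and KIFAP3, the adaptor of the KIF3 motor, of 0.63 (SE 0.21). Of 16 subunits of cytoplasmic dynein and dynactin, the motor of the opposite direction, 0 were called by edgeR with both conjugates against PBS. Their changes ran from −0.36 to 0.57, and 10 had an unadjusted p under 0.05, as had 9204 of all 15070 genes tested. In the T-DXd-titled tumors DYNLRB1 was called higher by edgeR (log2 fold change 0.60, adjusted p = 0.00428), beside 13.1% of all genes.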

How the data were processed

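RNA-Seq was done on 9 PC3 xenografts, 3 per group, with groups taken from sample titles. According to the study's methods and the labels, reads were trimmed (Cutadapt), mapped to GRCh38.p13 (STAR), and counted per gene (featureCounts) by the authors. The deposited values are raw counts per gene in 2 tables, each holding 1 treated group and the same PBS libraries (16098 and 16114 genes, 16008 in both). The coordinates in the tables do not match GRCh38 and their build is not named, so they are not printed.

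Each comparison was fitted in edgeR 4.0.16 (R 4.3.3) with TMM scaling, filterByExpr, and the quasi-likelihood F test, adjusted over all genes tested by the Benjamini-Hochberg method. SE was taken as the log2 fold change over the square root of F. Of the 36 kinesins, 35 passed the filter with both conjugates against PBS. CPM came from 1 TMM scaling of 9 libraries. Lengths are those of Ensembl canonical transcripts (GENCODE v44). Count ratios were compared by an exact permutation test on the absolute difference of means. Values by library were given for mitotic kinesins, for others called with both conjugates against PBS, and for the 4 most abundant transport kinesins. Scripts were tested on simulated counts. DESeq2 1.42.0, other scaling, other filters, no fold minimum, a block, and leaving out each library were alternatives. The kinesin classes, gene lists, pairs, and tests were chosen with earlier results of these data known. Animals are separate but were sampled once each, so p-values set a difference against the spread between tumors, 3 per group. With both conjugates against PBS the treated tumors of both titles form 1 group, so that spread includes any difference between the titles. Totals of 54481702 counts or more put the limit on replicate spread for all but the scarcest kinesins. Some marker genes are not reported here.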

Additional observations from a re-analysis of the deposited data

How the results depend on the processing

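The count of mitotic kinesins called lower was 11 against PBS in the P-DXd-titled, T-DXd-titled, and joint comparisons under the alternatives run (DESeq2, RLE scaling, both filters, no fold minimum, the block, each library left out, and, for the separate groups, all 9 libraries in 1 fit), except that with no filter on low counts it was 12 in the P-DXd-titled comparison, with KIF4B. Between the conjugate groups DESeq2 called 2 where edgeR called 0. All 5 count ratios kept direction and threshold with 1 count added and with each library left out. Transport calls were less stable. With no fold minimum they numbered 5 for T-DXd-titled and 6 for both conjugates instead of 3 and 3, and other kinesins 2 and 2 instead of 1 and 1. A block on the digit before the point in the animal code left 1 for T-DXd-titled (KIF21A), with KIF13B at adjusted p = 0.0506 and KIF17 at 0.0577. Leaving out 1 library gave 1 to 3 transport calls for P-DXd-titled, 1 to 3 for T-DXd-titled, and 2 to 5 for both, and 0 to 1, 1 to 2, and 1 to 1 other calls. KIF24 was lost in the P-DXd-titled comparison without P-DXd-titled 3 (adjusted p = 0.0529). KIF3B turned to 0.00055 without PBS 2 and 0.0042 without PBS 3, and with each library left out KIF3C ranged from −0.12 to 0.23 and KIF7 from −0.13 to 0.12, below 0 without PBS 1, none of them called. The causes were not tested. Numbers of 0.1 CPM or less, as for KIF4B and KIF6, rest on about 10 counts or fewer. No paired analysis was possible because the labels do not say which tumors of different groups belong together. The digit of the animal code recurs within groups, its meaning is not given, and it was used only as the block above. The kinesin shares without PBS 1 and without division by length were added after seeing the data.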
